A study of Mus musculus with 11 samples.

Results

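The 9 genes Rapgef4, Cdca7, Ola1, Cir1, Scrn3, Gpr155, Wipf1, Chn1 and Atf2 lie beside Sp3 on mouse chromosome 2 and were examined in cultured fetal lung mesenchymal cells that carried 0, 1 or 2 targeted Sp3 alleles. They were chosen by position, as listed neighbours of Sp3, and all 9 have a row among the 24062 gene symbols counted. The question was whether the targeted allele went with a change in the genes next to it.

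RNA-seq had been performed on mesenchymal cells from the lungs of embryonic day 15 mice, grown on plastic and passaged before lysis. There were 4 WT (Sp3+/+), 4 heterozygous (Sp3+/-) and 3 homozygous mutant (Sp3-/-) libraries, with no treatment named for any of them. The mutants were embryos of matings between Sp3+/- mice. The strain, the sex, the deleted part of Sp3 and whether libraries shared a litter were not given in the sources used here, so the tests measure only the spread between these libraries. DNA linked to a targeted allele is inherited with it, and its effect and that of Sp3 loss cannot be told apart in this design.

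Sp3 is a zinc finger transcription factor that binds GC-rich promoter elements called GC boxes, with GGGCGG as their core, and can activate or repress. Genes that share a stretch of chromosome can share enhancers, promoters or chromatin domains, and a targeting event can disturb them together. For this reason neighbours are commonly checked when a knockout is studied by expression profiling.

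On the GRCm38.p6 assembly, Sp3 occupies chromosome 2 from 72936430 to 72980446 on the minus strand. The stretch from the start of Rapgef4 (71981215) to the end of Atf2 (73892677) spans 1.91 Mb and holds 39 annotated genes. Of these, 13 are protein-coding, and 3 of the 13 (Map3k20, Sp9 and Chrna1) belong to neither Sp3 nor the set. Rapgef4 (71981215 to 72257474) and Cdca7 (72476187 to 72486892) lie at lower coordinates, on the plus strand, with 679.0 kb and 449.5 kb between them and Sp3. The other 7 lie at higher coordinates, upstream of Sp3. Ola1 (73092801 to 73214447) is the nearest member, with 112.4 kb between it and Sp3. Cir1 (73283872 to 73312592) and Scrn3 (73312650 to 73337818) stand head to head with 57 bases between their ends. Gpr155 (73341506 to 73386521), Wipf1 (73429610 to 73529487), Chn1 (73610660 to 73775367) and Atf2 (73816509 to 73892677) follow, all on the minus strand, as are Ola1 and Cir1. Scrn3 is on the plus strand.

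RefSeq promoter sequences, from 250 bases before to 50 bases after each start on GRCm38.p6, were available for all 9 genes. The letters GGGCGG were searched on both strands. They occur in 35.7% of the 32851 promoters of the same table. At least 1 promoter of each of the 9 genes holds them. Sequences are shown for Ola1 and Wipf1, the members with an adjusted p below 0.05 in Sp3-/- against WT cells (edgeR). Others shown are for Gpr155, the member with most matches, and for Cir1, whose window overlaps that of Scrn3 by 159 bases. They run 5′ to 3′ along the gene's strand, and capitals mark GGGCGG or its reverse complement.

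Ola1, chr2:73214398-73214697, minus strand: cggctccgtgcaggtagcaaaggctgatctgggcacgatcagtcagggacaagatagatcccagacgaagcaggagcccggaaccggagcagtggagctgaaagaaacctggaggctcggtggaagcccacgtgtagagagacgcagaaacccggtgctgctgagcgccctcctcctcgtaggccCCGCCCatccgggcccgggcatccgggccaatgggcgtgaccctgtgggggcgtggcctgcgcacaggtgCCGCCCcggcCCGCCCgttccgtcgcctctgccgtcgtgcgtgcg
Wipf1, first of 3 promoters, chr2:73529438-73529737, minus strand: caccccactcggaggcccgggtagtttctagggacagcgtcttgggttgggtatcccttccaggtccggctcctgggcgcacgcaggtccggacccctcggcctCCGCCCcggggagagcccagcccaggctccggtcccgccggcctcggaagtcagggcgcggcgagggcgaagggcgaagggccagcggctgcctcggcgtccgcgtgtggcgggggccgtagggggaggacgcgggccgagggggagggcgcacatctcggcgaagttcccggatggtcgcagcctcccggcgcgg
Gpr155, chr2:73386431-73386730, minus strand: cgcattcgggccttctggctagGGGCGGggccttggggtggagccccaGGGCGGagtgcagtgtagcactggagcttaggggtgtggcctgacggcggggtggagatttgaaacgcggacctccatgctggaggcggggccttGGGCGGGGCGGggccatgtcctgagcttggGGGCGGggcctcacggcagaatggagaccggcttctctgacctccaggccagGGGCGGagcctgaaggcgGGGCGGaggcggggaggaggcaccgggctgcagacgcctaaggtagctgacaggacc
Cir1, chr2:73312543-73312842, minus strand: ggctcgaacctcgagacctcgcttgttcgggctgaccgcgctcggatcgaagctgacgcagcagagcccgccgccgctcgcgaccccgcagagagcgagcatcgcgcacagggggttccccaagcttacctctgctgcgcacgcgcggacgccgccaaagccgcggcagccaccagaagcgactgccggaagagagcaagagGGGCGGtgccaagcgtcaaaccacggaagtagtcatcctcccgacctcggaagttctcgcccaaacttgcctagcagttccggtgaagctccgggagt

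The Ola1 promoter holds GGGCGG 3 times, which 10.71% of promoters match or exceed, and the first Wipf1 promoter holds it 1 time. The other 2 Wipf1 promoters hold none. Gpr155 holds it 7 times, and only 0.63% of promoters hold as many. Of the longer form GGGGCGGGG, which contains the shorter, Gpr155 has 3, Atf2 2, and Rapgef4 and Cdca7 1 each, whereas 11.4% of promoters have any. The CACC-type letters GGTGTGGGG were found in no promoter of the 9 genes or of Sp3, and in 0.8% of all promoters.

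Sequencing depth ranged from 9849111 to 59297495 reads on genes per library, and the smallest was Sp3-/- library 697-5. Library titles end in no suffix, in 2 or in 3, and the meaning of the suffix was not given in the sources used here. All 3 Sp3-/- libraries, WT library 468-4 and Sp3+/- library 697-4 have none, although the file name of 697-4 carries 2. The 17 macrophage markers with a row summed to between 3415 and 12863 CPM (reads scaled to the same library total) in these 5 libraries and to between 418 and 1008 in the other 6. The 20 G2 and mitosis genes summed to between 177 and 427 CPM in the 5 and to between 680 and 1172 in the 6. The 15 lung mesenchyme markers, led by Col1a1 and Col1a2, summed to between 7800 and 20810 CPM in the 5 and to between 21442 and 23328 in the 6. By genotype their sums overlapped, at 13708 to 23328 CPM in WT and Sp3+/- libraries and 7800 to 20810 in Sp3-/- libraries. Mesothelial markers summed to between 2330 and 6560 CPM in Sp3-/- and to between 869 and 2877 in other libraries, epithelial markers to between 53.6 and 179 and between 25.5 and 51.7, endothelial markers to between 110 and 152 and between 112 and 194, and erythroid markers to between 9.01 and 13.4 and between 2.31 and 16.3. The most abundant epithelial markers were Krt18 and Krt19, and Krt19 is also in the mesothelial list. Sftpc, Nkx2-1 and Cldn3 were lower in Sp3-/- than in WT cells, none at an adjusted p below 0.05 (edgeR). The other epithelial markers tested were higher. Of the 9 erythroid markers, 5 to 7 were at 0 in each library. In bulk RNA, fewer cells of a type and less RNA per cell cannot be told apart.

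Levels are given as log2 CPM after TMM scaling of the 11 libraries together (prior count 2). Sp3 itself, the targeted gene, measured 6.52, 5.92, 6.75 and 6.30 in WT libraries 468-4, 685-2, 697-1 and 697-3. It measured 5.70, 5.98, 6.16 and 5.81 in Sp3+/- libraries 468-3, 685-5, 685-7 and 697-4, and 4.24, 4.20 and 3.86 in Sp3-/- libraries 685-1, 697-2 and 697-5. All 3 Sp3-/- libraries lay below every other library, which fits their labels, and the Sp3+/- and WT ranges overlapped. Reads on Sp3 remained in the mutants, 674, 810 and 144 of them, and counts per gene do not show on which exons. Sp3 fell by 2.30 on the log2 scale in Sp3-/- against WT cells (95% interval -2.79 to -1.81, adjusted p = 0.0061). P-values are from the quasi-likelihood test of edgeR, adjusted over all genes by the Benjamini-Hochberg method.

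Of the 9 flanking genes, 8 passed the filter of CPM above 1 in at least 1 library and were tested. In Sp3-/- against WT cells, Ola1 fell and Wipf1 rose, and the other 6 did not pass the test at an adjusted p of 0.05. Over the whole transcriptome, 18.5% of 14025 genes tested were called, 9.77% lower and 8.76% higher (1370 and 1229 genes, or 1671 and 983 with upper quartile scaling), and 2 called of 8 is near that background. The median log2 fold change of the 8 was 0.01, and that of all genes was -0.003. In Sp3+/- against WT cells no member was called, and none of the 14130 genes tested was (0%, edgeR). At an unadjusted p below 0.05 there were 246, and DESeq2 and limma-voom called none either. In Sp3-/- against Sp3+/- cells Ola1 and Wipf1 were again called, where 25.5% of all genes were, 12.5% lower and 13% higher (1769 and 1838 genes, or 2171 and 1436 with upper quartile scaling). These comparisons share libraries and are not independent of each other.

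**Figure D1:**
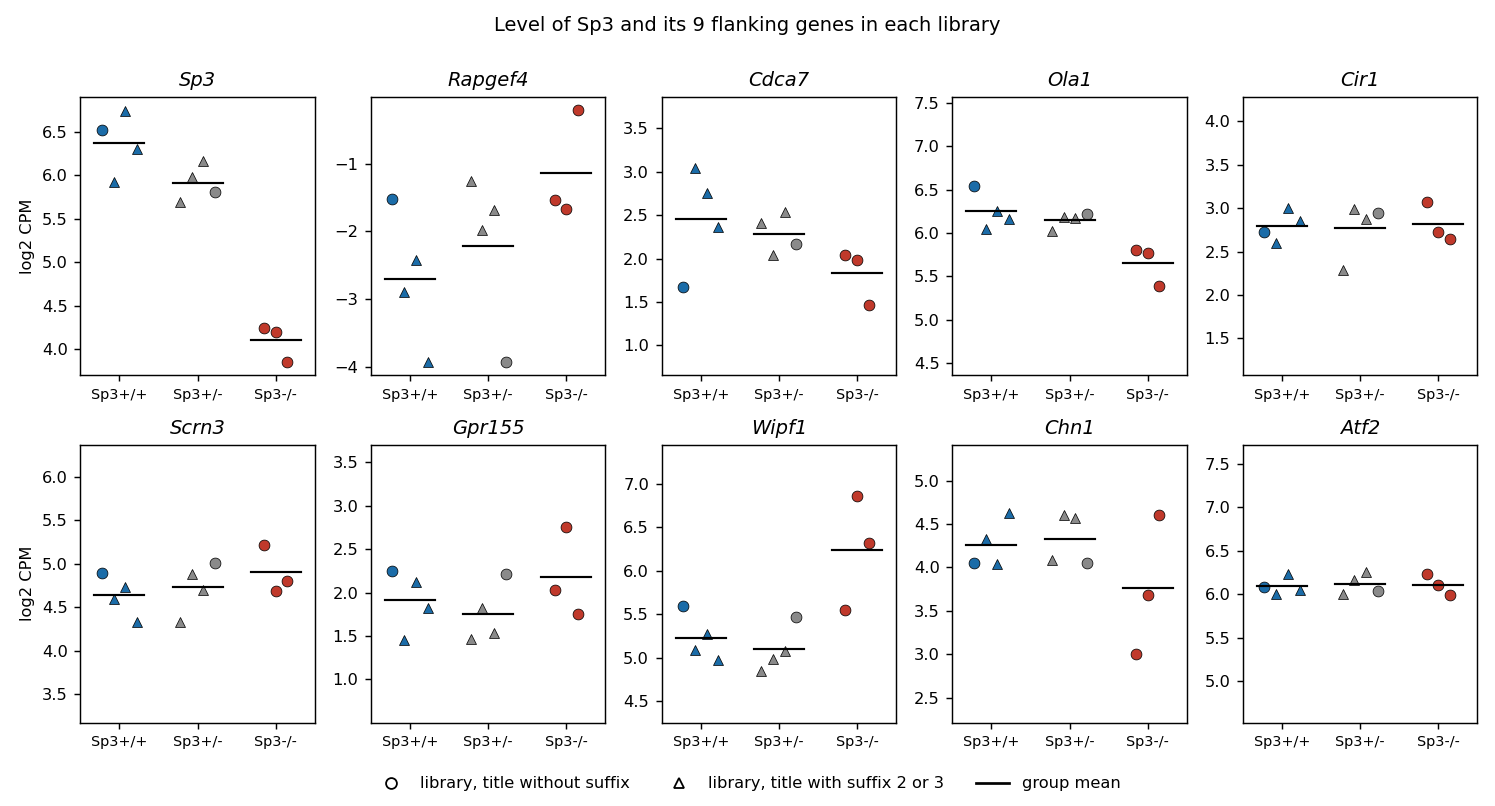
Level of Sp3 and its 9 flanking genes (log2 CPM) in each of 4 WT (Sp3+/+, blue), 4 Sp3+/- (grey) and 3 Sp3-/- (red) libraries, with bars at the group means, circles for titles without a suffix and triangles for titles with one. Ola1 is below every other library in all 3 Sp3-/- libraries, from 5.39 to 5.80, while the Wipf1 points of Sp3-/- cells spread from 5.55 to 6.86.

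Ola1 encodes Obg-like ATPase 1, a cytosolic P-loop nucleotide hydrolase with links to translation and stress responses. It was the most abundant member per length of exon, at 10.9 ± 1.6 CPM per kb in WT (s.d., n=4). In WT libraries 468-4, 685-2, 697-1 and 697-3 it measured 6.54, 6.05, 6.26 and 6.16 log2 CPM. In Sp3+/- libraries 468-3, 685-5, 685-7 and 697-4 it measured 6.02, 6.18, 6.18 and 6.21, within the WT range but for 468-3. In Sp3-/- libraries 685-1, 697-2 and 697-5 it measured 5.80, 5.77 and 5.39. No Sp3-/- library reached the lowest of the other 8, which was true of no other member, while 12.8% of all genes were below every WT and Sp3+/- library in this way. The log2 fold change was -0.61 in Sp3-/- against WT cells (95% interval -0.94 to -0.27, standard error 0.14, adjusted p = 0.0307, edgeR). It was -0.49 against Sp3+/- cells (adjusted p = 0.0192, edgeR). Changes of at least this size against WT were seen in 30.0% of all genes tested.

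In Sp3-/- library 685-1 (3519 CPM of macrophage markers) Ola1 was lower than in WT library 468-4 (3685 CPM) and Sp3+/- library 697-4 (3415 CPM). The other Sp3-/- libraries, 697-2 and 697-5, had macrophage sums of 12863 and 11421 CPM, which no WT or Sp3+/- library reached. The part of the macrophage markers in the Ola1 difference was not tested. Among the 5 libraries without a suffix, the 3 Sp3-/- ones averaged 5.65 log2 CPM, and the WT and Sp3+/- ones measured 6.54 and 6.21. There was no overlap, but the share of all genes separate in this small split was not computed. With the suffix as a covariate in a fit of all 11 libraries the log2 fold change against WT was -0.77 (adjusted p = 0.0144, edgeR). No Sp3-/- library has a suffix, so this value leans on 468-4, with the highest Ola1 of the 11, and on 697-4. It is not a check separate from the comparison of the 5. Within first label number 685 the only Sp3-/- library was 0.25 below the only WT library, and within 697 the mean of 2 was 0.63 below that of 2. Leaving out 1 library at a time ended the call in 5 of 7 cases, without 685-2, 697-1, 697-3, 697-2 or 697-5, with adjusted p between 0.0519 and 0.0915 (edgeR) and log2 fold changes between -0.67 and -0.50.

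Scrn3, a member of the secernin family of hydrolase-like proteins, shares its upstream region with Cir1. It lay between 4.33 and 4.90 log2 CPM in WT, between 4.33 and 5.01 in Sp3+/- and between 4.69 and 5.22 in Sp3-/- libraries. The groups overlapped, and the log2 fold change of 0.26 in Sp3-/- cells had an interval from -0.14 to 0.67 (adjusted p = 0.306, edgeR).

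Cir1 encodes a corepressor that binds the Notch pathway factor RBPJ. It lay between 2.60 and 3.00 log2 CPM in WT and between 2.65 and 3.07 in Sp3-/- libraries. Its log2 fold change was 0.02, with an interval from -0.40 to 0.43, so that larger changes than 0.43 in either direction lie outside it. Although the starts of Cir1 and Scrn3 lie side by side, neither gene was called in any of the 4 comparisons.

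Atf2 encodes a leucine zipper transcription factor of the ATF and CREB family that stress kinases phosphorylate. It varied least of the members, with a standard deviation within genotypes of 0.11 on the log2 scale, and 13.6% of all genes varied less. All 11 libraries lay between 5.99 and 6.26 log2 CPM. The log2 fold change in Sp3-/- against WT cells was 0.01, with an interval from -0.21 to 0.23.

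Cdca7 encodes a nuclear protein of dividing cells that works with the remodelling ATPase HELLS. It measured 1.67, 3.05, 2.75 and 2.37 log2 CPM in WT libraries 468-4, 685-2, 697-1 and 697-3, and 2.41, 2.04, 2.54 and 2.16 in Sp3+/- libraries 468-3, 685-5, 685-7 and 697-4. In Sp3-/- libraries 685-1, 697-2 and 697-5 it measured 2.05, 1.98 and 1.47. Libraries 685-1 and 697-2 lay above WT library 468-4 and below the other 3 WT libraries. Between Sp3-/- and WT cells the difference was -0.69 on the log2 scale, with an interval from -1.50 to 0.13 (adjusted p = 0.193, edgeR). Without 468-4 it was -0.89 and was called (adjusted p = 0.0417, edgeR). With the first label number as a replicate block it was also -0.89 and called (adjusted p = 0.0391, edgeR), and it was -1.001 within 685 and -0.84 within 697. With the title suffix as a covariate it was -0.17, and with the file suffix as a covariate or in the libraries without a title suffix alone it turned to 0.20 and 0.18, none of them called. Libraries 697-5 and 468-4, with the lowest Cdca7, also had the lowest G2 and mitosis sums, 177 and 299 CPM. Of 30 S phase genes, 4 fell in Sp3-/- against WT cells and none rose, among them Rrm2 (-1.43) and Gins2 (-1.19), subunits of ribonucleotide reductase and of the GINS replication complex. That is 13.3% called, against 18.5% of all genes, of which 9.77% fell. Of 20 G2 and mitosis genes, none passed the test, although their median log2 fold change was -1.20. The part of the cell cycle genes in the Cdca7 values was not tested.

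Wipf1 encodes WIP, which binds and stabilises the actin nucleation factor WASP and is abundant in blood cells. It measured 5.60, 5.08, 5.27 and 4.97 log2 CPM in WT libraries 468-4, 685-2, 697-1 and 697-3. It measured 4.85, 4.98, 5.08 and 5.47 in Sp3+/- libraries 468-3, 685-5, 685-7 and 697-4, and 5.55, 6.86 and 6.32 in Sp3-/- libraries 685-1, 697-2 and 697-5. Sp3-/- library 685-1 lay just under WT library 468-4, so the Sp3-/- and WT groups overlapped. Sp3-/- and WT libraries were separate, in either direction, for 31.3% of all genes. All 3 Sp3-/- libraries were above every Sp3+/- library, and the share of all genes separate between those groups was not computed. The log2 fold change was 1.09 against WT (95% interval 0.39 to 1.79, standard error 0.30, adjusted p = 0.0439, edgeR) and 1.22 against Sp3+/- cells (adjusted p = 0.0117, edgeR).

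Macrophage markers and Wipf1 were highest in the same libraries. The 5 libraries with the highest Wipf1 were the 5 with the highest macrophage sums, in the same order (697-2, 697-5, 468-4, 685-1 and 697-4), and were the 5 without a suffix. Their Wipf1 levels ran from 5.47 to 6.86 log2 CPM, and those of the other 6 libraries from 4.85 to 5.27. Among these 6 the orders differed. WT library 697-3 had the highest macrophage sum of the 6, 1008 CPM, with Wipf1 at 4.97. WT library 697-1 had their highest Wipf1, 5.27, with a macrophage sum of 701 CPM. Of the 16 macrophage markers tested, 8 rose in Sp3-/- against WT cells and 15 rose against Sp3+/- cells, with median log2 fold changes of 2.36 and 2.80. Lyz2, the most abundant, rose by 2.73 against WT (adjusted p = 0.0423, edgeR), and Aif1 rose by 3.00. None of the 17 was at 0 in any library. With the suffix as a covariate the Wipf1 log2 fold change was 0.74 and was no longer called (adjusted p = 0.173, edgeR). Among the 5 libraries without a suffix, Sp3-/- libraries averaged 6.24 log2 CPM and overlapped with 468-4. Within first label number 685 the only Sp3-/- library was 0.47 above the only WT library, and within 697 the mean of 2 was 1.47 above that of 2. Limma-voom, the tool of the study, gave 0.99 and no call (adjusted p = 0.0652). With a consensus correlation, which the study's methods also name, limma-voom gave 1.005 and no call (adjusted p = 0.0511). Leaving out 685-2, 697-1, 697-3, 697-2 or 697-5 also ended the call, and the value was lowest, 0.74, without 697-2. The part of the macrophage markers in the Wipf1 difference was not tested.

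**Figure D2:**
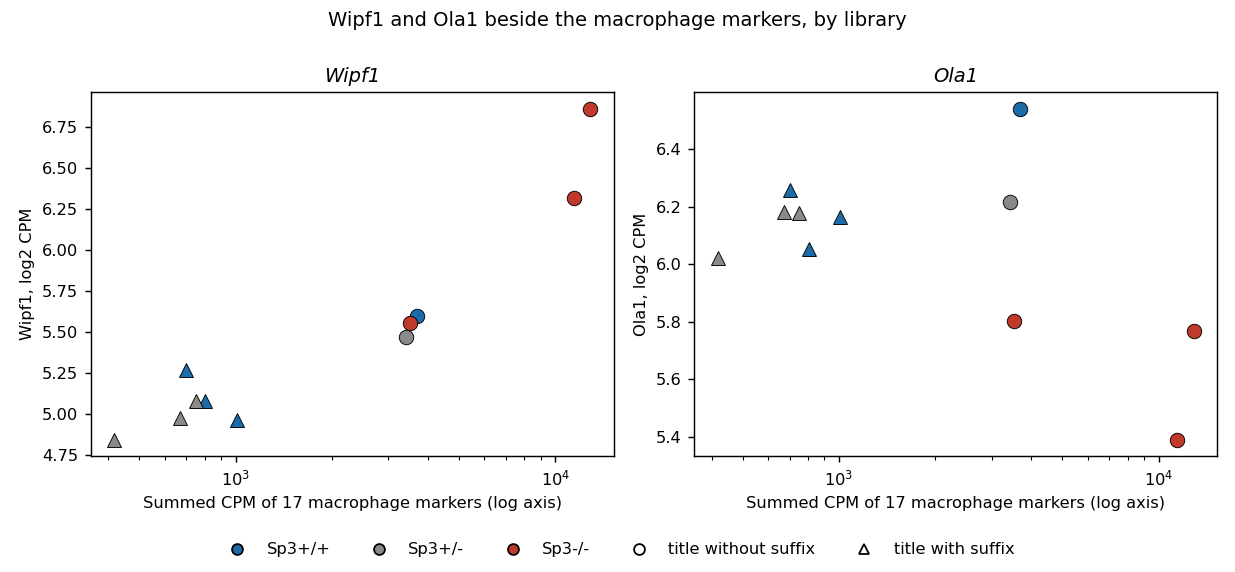
Log2 CPM of Wipf1 (left) and Ola1 (right) against the summed CPM of 17 macrophage markers on a log axis, 1 point per library, coloured by genotype and shaped by title suffix. Wipf1 is at 5.47 or higher in the 5 libraries with macrophage sums from 3415 CPM up, 697-4 and 468-4 included, whereas Ola1 is lowest in the 3 Sp3-/- libraries (red), of which only 685-1 has a macrophage sum near those of 468-4 and 697-4.

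Chn1 encodes chimaerin, a diacylglycerol-responsive GTPase-activating protein for Rac. It measured 4.05, 4.32, 4.04 and 4.63 log2 CPM in WT libraries 468-4, 685-2, 697-1 and 697-3, and 3.00, 3.68 and 4.60 in Sp3-/- libraries 685-1, 697-2 and 697-5. The Sp3-/- values spread over 1.60 log2 units and included one at the top of the WT range. The fitted log2 fold change was -0.39, with an interval from -1.26 to 0.48 (adjusted p = 0.481, edgeR), and it ran from -0.92 without 697-5 to -0.08 without 685-1, not called in either case. Against Sp3+/- cells Chn1 was at -0.46 and was not called (adjusted p = 0.331, edgeR). There limma-voom called it lower, at -0.88 (adjusted p = 0.0426) or -0.87 with a consensus correlation (adjusted p = 0.0435), as did edgeR without 697-5, at -0.995 (adjusted p = 0.0308). The antisense gene Chn1os3 overlaps Chn1, and whether counting used strand was not given in the sources used here. Chn1os3 had 11 to 64 reads per library against 238 to 1422 for Chn1.

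Gpr155, a membrane protein of lysosomes that takes part in cholesterol sensing, was low, at 0.42 ± 0.10 CPM per kb in WT (s.d., n=4). It lay between 1.45 and 2.25 log2 CPM in WT, between 1.46 and 2.21 in Sp3+/- and between 1.75 and 2.76 in Sp3-/- libraries. The difference from WT was 0.31 on the log2 scale, with an interval from -0.41 to 1.03 (adjusted p = 0.496, edgeR). No comparison called it.

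Rapgef4 encodes a guanine nucleotide exchange factor for Rap that cAMP activates, best known in neurons and endocrine cells. It was near the limit of detection and was not tested. Its counts were 10, 1, 3 and 0 in WT libraries 468-4, 685-2, 697-1 and 697-3, 5, 11, 11 and 0 in Sp3+/- libraries 468-3, 685-5, 685-7 and 697-4, and 10, 11 and 8 in Sp3-/- libraries 685-1, 697-2 and 697-5. The count of 0 in WT library 697-3 allows up to 0.0889 CPM and that in Sp3+/- library 697-4 up to 0.149 CPM, counting 3 reads as the limit and counting error alone. With every gene that had a count admitted, the log2 fold change in Sp3-/- against WT cells was 1.59 (adjusted p = 0.288, edgeR). No difference between genotypes was called at these low counts, which does not show that there is none.

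Per length of exon, the order of WT means was Ola1 (10.9), Wipf1 (6.18), Atf2 (5.78), Chn1 (2.59), Scrn3 (2.21), Cir1 (2.00), Cdca7 (1.35), Gpr155 (0.42) and Rapgef4 (0.010 CPM per kb). Wipf1 and Atf2 did not differ beyond their spread (s.d. 1.22 and 0.42, n=4), nor did Chn1, Scrn3 and Cir1 (s.d. 0.52, 0.36 and 0.24). In Sp3-/- cells the mean of Wipf1 came first, at 13.2 ± 5.6, and that of Ola1 second, at 7.21 ± 1.09 CPM per kb (s.d., n=3). The order was the reverse in Sp3-/- library 685-1, with Ola1 at 7.93 and Wipf1 at 7.63 CPM per kb.

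**Figure D3:**
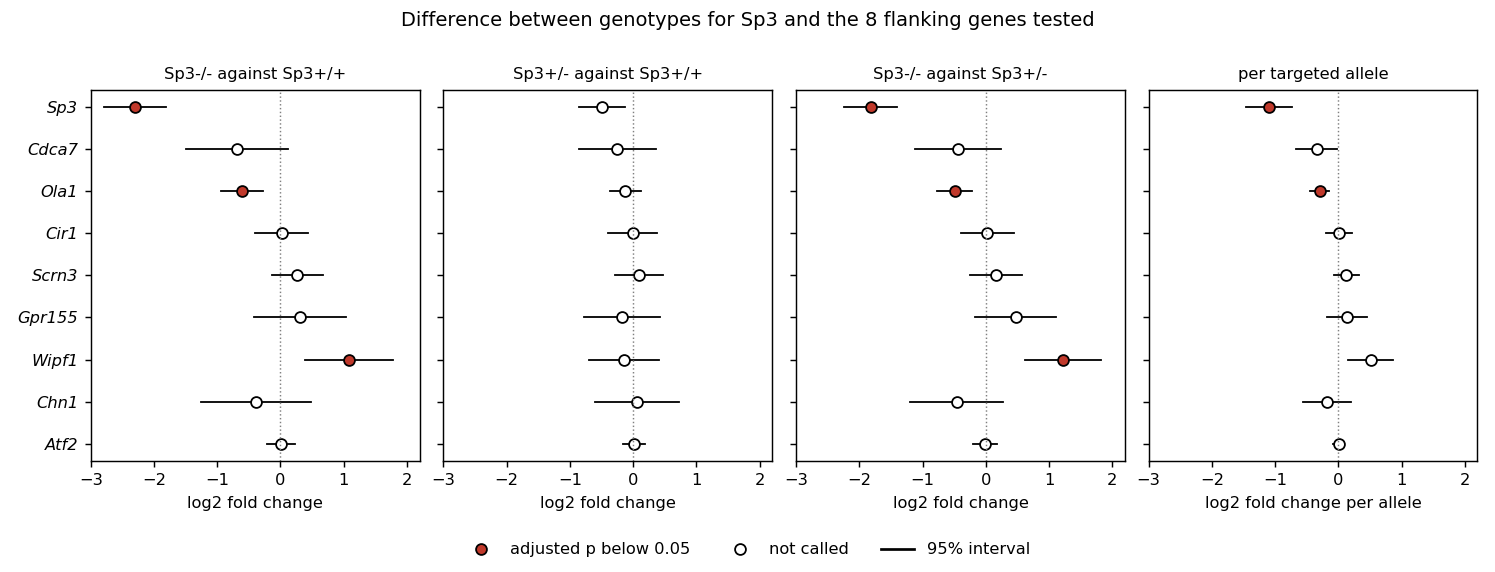
Log2 fold change with its 95% interval for Sp3 and the 8 flanking genes tested, in Sp3-/- against WT (Sp3+/+), Sp3+/- against WT, Sp3-/- against Sp3+/-, and per targeted allele, with red fill for an adjusted p below 0.05. Ola1 is called in 3 panels and Wipf1 in 2, and in Sp3+/- against WT every interval of a flanking gene includes 0.

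If a neighbour changed with each targeted allele, its level would follow the number of alleles. A slope on 0, 1 and 2 alleles over all 11 libraries called 15.5% of all genes, 7.47% lower and 8.03% higher. Among the members it called Ola1, at -0.29 log2 units per allele (interval -0.45 to -0.14, adjusted p = 0.0264, edgeR), but not Wipf1 (0.51, adjusted p = 0.0539, edgeR) or Cdca7 (-0.34, adjusted p = 0.118, edgeR). With the suffix covariate the Ola1 slope was -0.33 and was not called (adjusted p = 0.0970, edgeR), and without library 685-1, 697-1, 697-2 or 697-5 it was also not called, between -0.31 and -0.23. The slope alone does not show a step at the first allele. Against WT, Sp3+/- cells differed by -0.12 for Ola1 (interval -0.37 to 0.13) and by -0.14 for Wipf1 (interval -0.70 to 0.41). These intervals include both no change and, for Ola1, the slope itself. For Wipf1 the Sp3+/- mean was 0.68 log2 units below the midpoint of WT and Sp3-/- (adjusted p = 0.190, edgeR), and for Ola1 it was 0.18 above it (adjusted p = 0.362, edgeR), so no departure from the midpoint passed the test. Sp3 itself was 0.66 above the midpoint in Sp3+/- cells (adjusted p = 0.101, edgeR). Slope and midpoint are on the log2 scale, where equal steps in CPM per allele would place Sp3+/- cells above the midpoint.

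Other genes around Sp3 were described by windows around its start. For these distances the start is the lower coordinate of a gene, whatever its strand. Within 0.5 Mb, the only other gene tested, Sp3os, was not called. Within 1 Mb, 5 genes other than Sp3 and the 9 were tested in Sp3-/- against WT cells and none was called (edgeR). Within 2 Mb, 1 of 24 fell and 2 rose. Within 5 Mb, 3 of 56 fell and 5 rose, which is 14.3% called against 18.5% of all genes, with a median log2 fold change of 0.20. In Sp3-/- against Sp3+/- cells, where 25.5% of all genes were called, 1 of 5 was called within 1 Mb (Map3k20, -0.54, adjusted p = 0.0288, edgeR), 1 of 24 fell and 6 rose within 2 Mb (29.2% called), and 4 of 57 fell and 12 rose within 5 Mb (28.1%). The 4 tested genes nearest to Sp3 on the lower side were Map3k20 (-0.55, adjusted p = 0.0666), Pdk1 (-0.71, adjusted p = 0.0442), Itga6 (0.68, adjusted p = 0.0919) and Dlx2 (-0.47, adjusted p = 0.253, all edgeR). Pdk1, a kinase that restrains pyruvate dehydrogenase, fell and was below every WT and Sp3+/- library in all 3 Sp3-/- libraries. On the higher side they were Sp3os (-0.22), Chrna1 (1.46, adjusted p = 0.0858), Chn1os3 (-0.53) and Atp5g3 (-0.04), of which none was called (edgeR). Sp3os, antisense to Sp3, had 24 to 129 reads per library.

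Of the 56 genes tested within 5 Mb besides Sp3 and the 9, only 5 start within 1 Mb. The distances of the largest called changes among the 56 therefore do not show whether changes gather near Sp3. Osbpl6, an oxysterol-binding protein relative 3.47 Mb from the Sp3 start, fell by 2.74 log2 units (adjusted p = 0.0125, edgeR), and Ttn, which encodes titin, rose by 1.56 at 3.77 Mb (adjusted p = 0.0150, edgeR). Pdk1, Prkra (-0.55) and Tlk1 (0.45) followed. Between 1.76 and 1.83 Mb from Sp3, 5 Hoxd genes had log2 fold changes between 2.43 and 2.99, and none was called, with adjusted p between 0.0677 and 0.213 (edgeR). Their standard errors ran from 0.97 to 1.42, and Sp3-/- and WT libraries overlapped for each. Their mean levels were low, from -2.63 (Hoxd1) to 1.84 log2 CPM (Hoxd8). These Hoxd genes were picked after their values were seen.

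**Figure D4:**
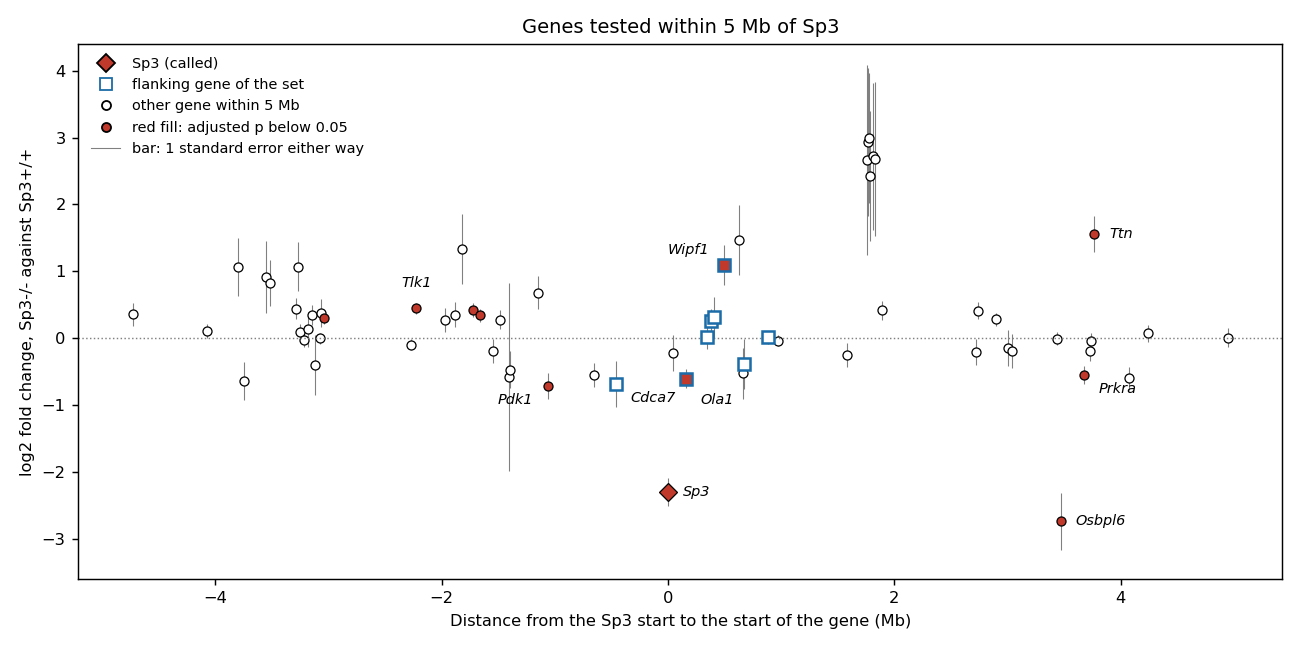
Log2 fold change in Sp3-/- against WT (Sp3+/+) cells (bars, 1 standard error either way) against the distance of each tested gene's start from that of Sp3, in Mb. Starts are lower coordinates, whatever the strand. Called genes (red fill) are spread over the window and include Ola1 at 0.16 Mb and Wipf1 at 0.49 Mb, and the uncalled points near 2.4 to 3.0 are the Hoxd genes and their antisense neighbour.

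Relatives of Wipf1 and Atf2 elsewhere in the genome were counted from 2 lists. Of 20 genes of WASP and WIP actin nucleation, 2 rose and 2 fell in Sp3-/- against WT cells, with Was, the blood cell partner of Wipf1, at 2.30 (adjusted p = 0.0480, edgeR) and Pacsin2 at 0.66. Cttn, which encodes cortactin, fell by 0.41. The 20% called is near the 18.5% of all genes. Of 20 ATF and CREB family genes, 2 rose (Fos, 1.11, and Atf6, 1.05) and 1, Atf5, fell by 0.54, while the other 17 were not called, so that 15% were called against 18.5% of all genes. The summed CPM of both lists was higher in all 5 libraries without a suffix than in all 6 with one, as 2613 to 3136 against 2314 to 2499 for the WASP and WIP list. The part of the suffix and of the macrophage markers in them was not tested.

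Genes whose centred levels over the 11 libraries lay nearest to those of Ola1 were Atf5, Eif1ax and Rps10, at root mean square differences of 0.085, 0.110 and 0.112 log2 units, where the median gene of 11203 was at 0.36. Near to Wipf1 were Gsap and Arl4c, at 0.14 and 0.142 against a median of 0.64. All were picked for their small differences, so that lying below the median follows from the choice.

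**Figure D5:**
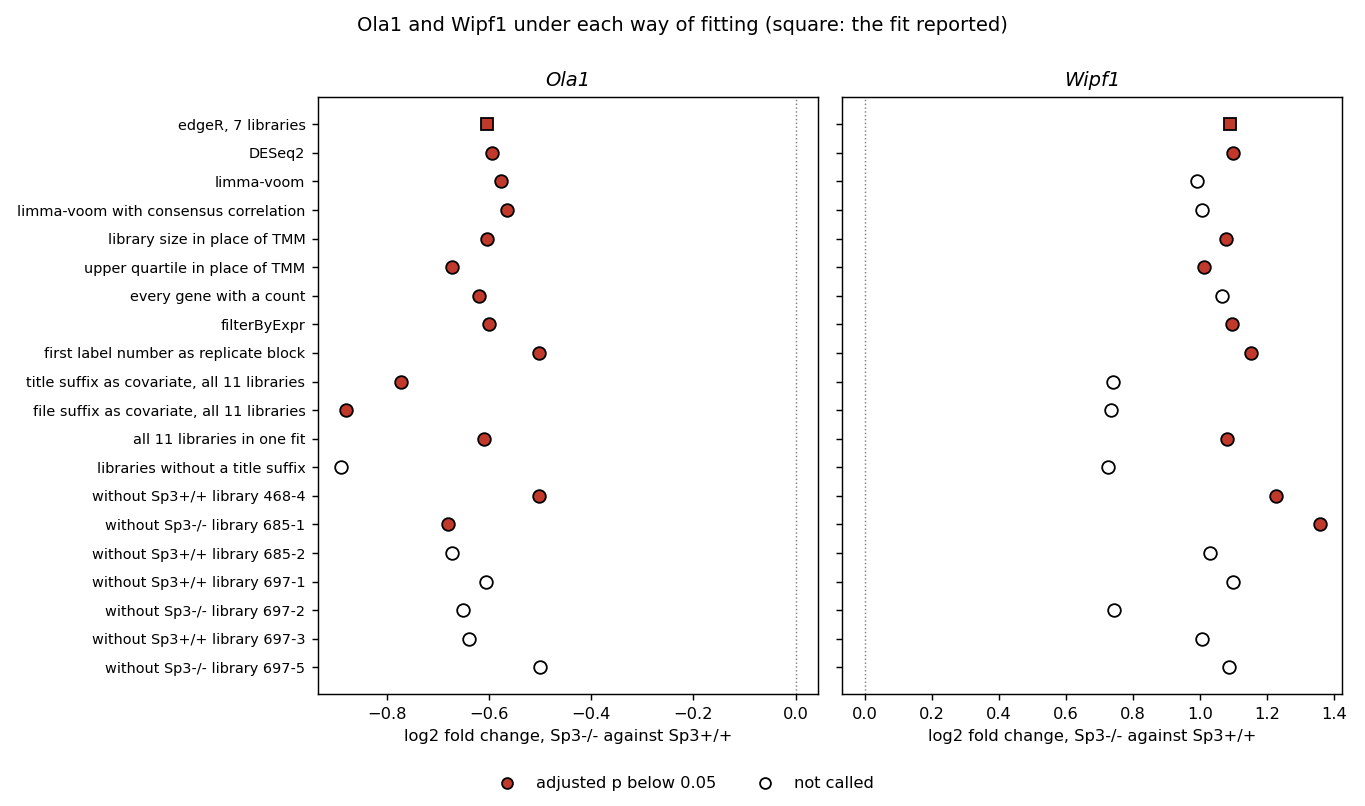
Log2 fold change of Ola1 (left) and Wipf1 (right) in Sp3-/- against WT (Sp3+/+) cells in the reported fit (square) and in 19 other fits, with red fill for an adjusted p below 0.05. Ola1 stays between -0.89 and -0.50 and Wipf1 between 0.73 and 1.36, with Ola1 called in 13 of the 19 and Wipf1 in 8.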

How the data were processed

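The authors checked 50-base single-end TruSeq reads with FastQC 0.10.1, aligned them to mm10 with STAR 2.4.5a and counted them per gene symbol with htseq-count. The deposited values are raw counts per gene. The annotation and strand setting were not given in the sources used here. Between 38.4% and 40.9% of counted reads were in tallies that name no gene, and these were left out. Genotypes came from the labels. Libraries of a genotype differed by more than counting noise (lowest chi-square per degree of freedom 16.6).

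Genes with a CPM above 1 in any library of a comparison entered edgeR 4.0.16 (TMM, estimateDisp, robust glmQLFit, glmQLFTest) in R 4.3.3, and differences were called at a Benjamini-Hochberg adjusted p below 0.05. The study used limma-voom, which is an alternative here. Sp3-/- against WT used 7 libraries, and the other comparisons used all 11. Standard errors and intervals follow from the test statistic and its degrees of freedom. The fits were tested on simulated data. Alternatives were DESeq2 1.42.0, limma-voom 3.58.1 with and without a consensus correlation, other scalings and filters, the first label number as a replicate block, the suffix of titles or file names as a covariate, and leaving out libraries. The departure from the midpoint and a window of 0.5 Mb were added after seeing the data.

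Positions and promoters are those of RefSeq GRCm38.p6. Exon lengths were taken from GENCODE vM39. The members, gene lists and tests were chosen with earlier results of these data known. Named genes are Sp3 and the members, the 4 tested genes nearest to Sp3 on each side, the 5 largest called changes within 5 Mb, the 3 nearest profiles of each called member (mean above 2 log2 CPM), and of each gene list the 2 largest called changes and the 2 most abundant genes, of which some are left unnamed. A gene list and a gene with a near profile are not reported here.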

Additional observations from a re-analysis of the deposited data

Results flagged for a closer look

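Cir1 in Sp3+/- library 468-3, at 2.29 log2 CPM, stood apart from the other 3 Sp3+/- libraries, the nearest of which was at 2.87. The gap was 0.836 of the range of the group, above the 95% critical value of Dixon's test for 4 samples. The library had 68 reads on Cir1. Sp3 and the members were examined in 20 groups of 4 libraries, and chance flags about 1 group in 20.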

How the results depend on the processing

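In Sp3-/- against WT cells, 2 members (Ola1 and Wipf1) and 2599 genes were called. Only Ola1 was called, so 1 member, by limma-voom, by limma-voom with a consensus correlation, with every counted gene admitted, and with the suffix of titles or of file names as a covariate. The covariates left 1329 and 163 genes, DESeq2 called 4297 and all 11 libraries in one fit 3977. The 5 libraries without a suffix, with a lone WT library assumed to vary like the others, gave 0 members and 0 genes by edgeR. Against Sp3+/- cells (2 members, 3607 genes), the title suffix left 1 member and 763 genes, and the file suffix 0 and 0. Per allele (1 member, 2190 genes), DESeq2 called 2 and 4070, the title suffix left 0 and 12, and the file suffix 0 and 0. Leaving out 1 library at a time gave 0 to 3 members and 282 (without 697-2) to 4179 genes (without 468-4) against WT, 0 to 2 and 1490 to 4245 against Sp3+/-, and 0 to 3 and 10 (without 685-1) to 4734 (without 468-4) per allele. The cause of these differences was not tested. Of 738 values of single genes, 629 kept their direction and call, 35 lost a call, 9 gained one, none of the called reversed, and 65 uncalled ones changed sign.

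The first label number as a replicate block gave 4031 genes and 3 members against WT, with Cdca7 the third, and 1248 genes per allele, and kept the calls of Ola1 and Wipf1 against WT and Sp3+/-. Libraries with the same first number did not deviate together in every pair (14 pairs across genotypes, correlations from -0.62 to 0.34), and only 2 of 11 libraries correlated best with their own number. Scaling by library size or upper quartile kept both calls. In the smallest library, 697-5, 3 reads are 0.300 CPM, and its 8 reads on Rapgef4 lay above that limit, at 0.801 CPM.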
